A study of Mus musculus with 6 samples.

Results

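Olfactory receptor genes code for the odorant receptors of the nose and are the largest gene family of the mouse. They were examined here in 2 kidney cell lines, where the H3K27 signal over input was higher on them than on genes at large and the H3K4 signal was lower. Against other genes with promoters of like base composition, the H3K27 ratio came down from 1.54 to 1.16 in mK3 and from 1.37 to 1.14 in mK4. In the most AT-rich promoters H3K27 was not higher on them than on other genes. H3K4 in mK4 was not lower on them than on other genes of like composition. The genes were taken as all gene symbols that begin with Olfr followed by a digit, which gave 1126 genes in 1128 of the 22088 gene rows, out of 21937 genes in all. The lines, mK3 and mK4, are immortalized lines of the E11.5 mouse metanephros, the embryonic kidney, and both are labelled strain CD1. Chromatin immunoprecipitation and sequencing (ChIP-seq), in which chromatin fragments bound by an antibody to a histone modification are recovered and sequenced, gave 1 library per line with an H3K4 antibody, 1 with an H3K27 antibody and 1 of input chromatin. The series concerns histone methylation in nephron progenitors, from which the filtering units of the kidney form. Each group has 1 library and each line stands for itself, so no test between conditions was possible and all intervals are 95% intervals that cover counting error only.

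An olfactory neuron expresses a single allele of a single receptor gene, and the remaining members of the family are held silent. In those neurons the silent genes lie in constitutive heterochromatin, which carries trimethylation of H3K9 and H4K20, and distant enhancers such as the H element on chromosome 14 take part in the choice. Trimethylation of H3K27 is the mark of Polycomb silencing and is typically found on CpG-rich promoters of developmental regulators, while H3K4 methylation goes with active or poised promoters. The genes form long tandem clusters on many chromosomes, and their promoters are AT-rich and poor in CpG. A few members are known to be expressed in other tissues, and Olfr78 and Olfr90 are among those described in kidney. Class I receptors, which resemble those of fish, sit in 1 cluster on chromosome 7, and class II receptors make up the rest of the family.

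The promoters are printed because their base composition moved with the H3K27 signal described below, more weakly in mK4 than in mK3. Of the members, 937 had a window in the RefSeq promoter table (assembly GRCm38.p6), which runs from 250 bases before to 50 bases after the start of a gene. The 250 bases before the start are given here, with each CG pair in capitals. Olfr1211 (chr2:88930314-88930563, minus strand) stands for the AT-rich promoters of the largest cluster, and is also among the members with the least H3K27 signal over input. Olfr70 (chr4:43700808-43701057, minus strand) stands for the GC-rich end of the family, Olfr686 (chr7:105204342-105204591, minus strand) is among the members with the most H3K27 signal over input, and Olfr90 (chr17:37086237-37086486, minus strand) is a member described in kidney. Neurog2 (chr3:127632886-127633135, plus strand), a neural transcription factor and Polycomb target, is added for contrast. Olfr1211 and Olfr686 are extremes of the H3K27 signal, so the printed promoters do not show how composition and signal relate. For Olfr70 the H3K27 share over the input share was 1.72 (0.946 to 3.29) in mK3 and 1.43 (0.718 to 2.99) in mK4, not apart from 1.
Olfr1211: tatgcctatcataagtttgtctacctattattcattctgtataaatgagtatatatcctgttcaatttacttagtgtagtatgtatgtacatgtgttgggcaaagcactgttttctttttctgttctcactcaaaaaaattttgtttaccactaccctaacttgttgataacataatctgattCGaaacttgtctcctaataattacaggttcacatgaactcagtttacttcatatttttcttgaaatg
Olfr70: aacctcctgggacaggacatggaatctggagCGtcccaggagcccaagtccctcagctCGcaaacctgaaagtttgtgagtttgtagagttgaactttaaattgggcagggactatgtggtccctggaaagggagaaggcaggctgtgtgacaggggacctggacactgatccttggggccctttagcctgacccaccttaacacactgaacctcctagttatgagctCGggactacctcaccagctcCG
Olfr686: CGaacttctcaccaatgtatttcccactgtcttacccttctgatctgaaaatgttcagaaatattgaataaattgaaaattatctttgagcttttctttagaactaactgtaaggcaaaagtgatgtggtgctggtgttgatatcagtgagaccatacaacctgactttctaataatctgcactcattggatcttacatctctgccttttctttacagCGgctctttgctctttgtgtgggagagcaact
Olfr90: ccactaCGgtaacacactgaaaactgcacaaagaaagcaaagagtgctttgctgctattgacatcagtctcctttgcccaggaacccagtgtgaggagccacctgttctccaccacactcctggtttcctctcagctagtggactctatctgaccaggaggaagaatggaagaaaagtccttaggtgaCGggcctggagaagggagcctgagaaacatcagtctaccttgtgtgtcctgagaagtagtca
Neurog2: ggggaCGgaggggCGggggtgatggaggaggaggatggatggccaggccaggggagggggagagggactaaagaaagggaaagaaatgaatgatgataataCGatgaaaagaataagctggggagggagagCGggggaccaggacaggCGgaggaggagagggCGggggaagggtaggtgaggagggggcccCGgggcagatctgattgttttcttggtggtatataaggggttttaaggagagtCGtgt

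Olfr1211 had 1 CG pair in these 250 bases at 30.4% GC, and Olfr70 had 4 at 54.4% GC, against 8 at 58% GC in Neurog2. Olfr686 and Olfr90 had 2 CG pairs each, at 38% and 50% GC. Over the 300-base windows, the median GC content was 35% for members and 57% for all 16499 genes with a window. The ratio of observed to expected CpG had a median of 0.106 in members and 0.611 in all genes, and it passed 0.6 in 5 members (0.534%) against 50.9% of all genes. Those 5 members were Olfr56, Olfr750, Olfr427, Olfr1034 and Olfr1055. The TATA-type word TATAAA, searched on both strands, was present in 41.1% of the members' windows and 13% of all windows. In 1799 other genes of like GC content it was present in 34.5% of windows. Those genes were still less AT-rich than the members, with a median GC of 40.3%. The homeodomain core TAATTA, which reads the same on both strands, was present in 18.7% of members, 4.54% of all genes and 13.7% of the GC-like genes. The word CCCNNGGG, part of sites bound by Ebf factors, was present in 2.99%, 15.7% and 4.06% respectively. These matches describe the letters only.

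The antibody labels bear on every value below. For H3K4 the antibody is given as ab8898, a number under which Abcam sells an antibody to trimethylated H3K9, and for H3K27 as 39535. The labels do not give the degree of methylation. Over 20 Polycomb targets the H3K27 share was 2.63 times the input share in mK3 and 2.68 times in mK4, and over 20 active genes it was 0.569 and 0.616 times. In the libraries labelled H3K4 the active genes were at 1.23 and 1.40 and the 80 ribosomal protein genes at 1.53 and 1.43. Values were also taken for 2 sets that include genes known to carry H3K9 trimethylation. The 359 zinc finger genes, taken by name as Zfp and a digit, were at 0.979 and 1.0. The 8 imprinted genes were at 1.09 and 0.840, with 513 of their 693 reads in mK3 and 751 of 979 in mK4 on Kcnq1ot1. Which genes of these sets carry that mark in the 2 lines was not tested. The libraries are called H3K4 below after their label.

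Reads per gene were few. The libraries held 311409 to 714011 reads over exons, of which the olfactory receptor genes took 4850 in mK3 H3K4, 8633 in mK3 H3K27, 2951 in mK3 input, 5531 in mK4 H3K4, 5610 in mK4 H3K27 and 3284 in mK4 input. The median member had 3, 7 and 2 reads in mK3 (H3K4, H3K27 and input) and 4, 4 and 2 in mK4. Members without a read made up 19.9% of the family in mK3 input and 17% in mK4 input. They made up 8.79% in mK3 H3K4, 2.04% in mK3 H3K27, 5.95% in mK4 H3K4 and 5.77% in mK4 H3K27. The inputs were also the smallest libraries. In the order H3K4, H3K27 and input, the totals were 595305, 593079 and 311409 in mK3 and 714011, 481235 and 386695 in mK4. Raw read counts below are not scaled for these totals. Over all 6 libraries the median member had 24 reads, 764 members had at least 20 and 2 had none. The receptors are compact, with a median exon length of 946 bp against 2417 bp for other genes, but their density was low as well. Input reads per exon kilobase were 2.58 in mK3 and 2.87 in mK4 over members, against 5.07 and 6.31 over other genes. Some rows may not be separate genes, since 7 members in 3 groups (Olfr207, Olfr208 and Olfr209, Olfr1433 and Olfr1434, Olfr257 and Olfr285) had the same exon length and the same count in every library. Whether they are copies or 1 locus under several symbols was not tested. For these reasons the signal is given below as the share of all counted reads in pooled sets of members, each mark divided by the input share of its own line.

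**Figure D1:**
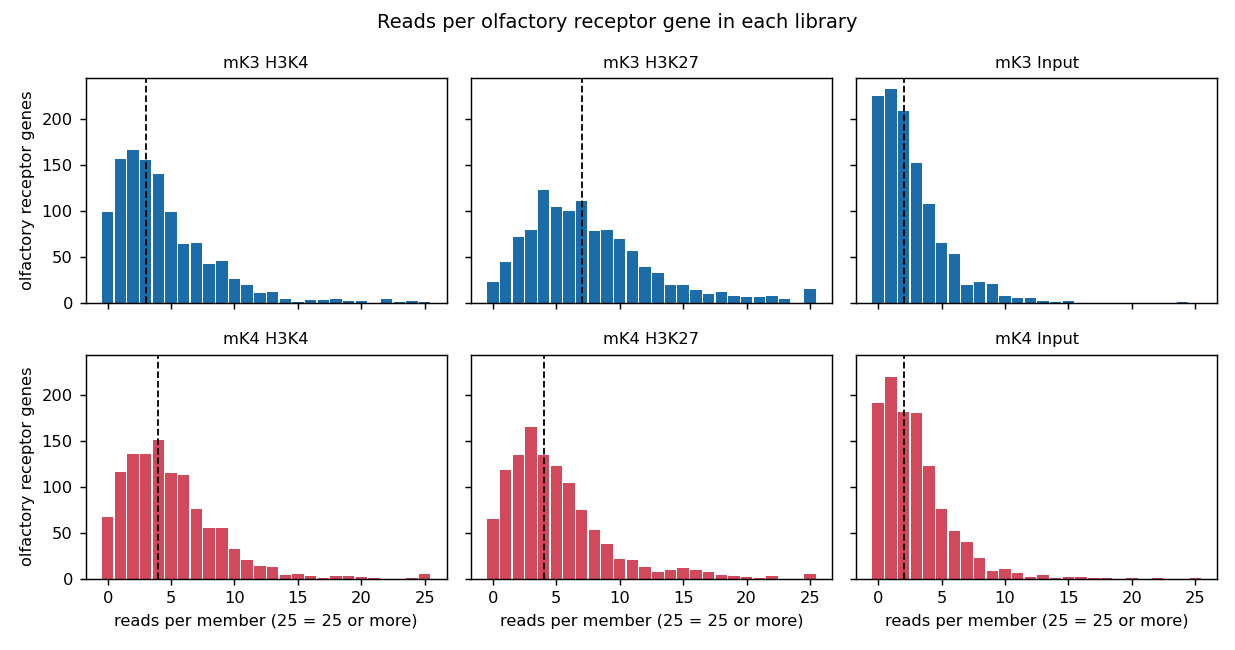
Number of olfactory receptor genes (vertical axis) by reads per gene (horizontal axis, 25 standing for 25 or more) in each of the 6 libraries, with the median as a dashed line. Most members had fewer than 10 reads in every library, and the medians were 3, 7 and 2 in mK3 and 4, 4 and 2 in mK4.

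Pooled over all members, H3K27 stood above input in both lines. The members held 1.46% of mK3 H3K27 reads against 0.948% of mK3 input reads, a ratio of 1.54 (1.47 to 1.60). In mK4 they held 1.17% against 0.849%, a ratio of 1.37 (1.31 to 1.43). H3K4 was below input, at 0.860 (0.821 to 0.900) in mK3 and 0.912 (0.873 to 0.953) in mK4, the latter turning to 1.04 against other genes of like promoter GC. The direct ratio of the H3K27 share to the H3K4 share, which needs no input, was 1.79 (1.72 to 1.85) in mK3 and 1.5 (1.45 to 1.56) in mK4. Even so, the members' H3K27 density, 7.56 reads per exon kilobase in mK3 and 4.91 in mK4, was below that of other genes, at 9.61 and 7.82. The excess is therefore over a low input density. H3K27 of the members stood above that of the other genes of the same chromosome on 17 of 17 chromosomes in both lines, and H3K4 stood below on 14 in mK3 and 11 in mK4. These counts are of point values, and not all were apart. On chromosome 2, with 291 members, H3K27 in mK4 was 1.06 (0.966 to 1.16) beside 1.03 in other genes. Chromosomes 3 and X had only 2 and 6 members.

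Other sensory receptors and tissue-restricted families had similar values. Vomeronasal receptor genes, which serve pheromone detection, had an H3K27 ratio of 1.45 (1.35 to 1.57) in mK3 and 1.22 (1.13 to 1.31) in mK4, and H3K4 of 0.834 and 0.857. Taste and trace amine receptors had 1.70 and 1.49 for H3K27, and keratin associated and defensin genes had 1.80 and 1.54. The 428 genes that flank the olfactory receptor clusters were near 1, with 1.06 and 1.02, and so were 853 other genes of like exon length, with 1.03 and 1.02. Other genes of like promoter GC content lay between, at 1.22 (1.20 to 1.25) and 1.24 (1.21 to 1.26). Against other genes in the same classes of promoter GC, the members' H3K27 ratio came down to 1.16 in mK3 and 1.14 in mK4, and their H3K4 ratio moved to 0.938 in mK3 and to 1.04 in mK4, where it is no longer below 1. The 20 Polycomb targets, at 2.63 and 2.68, were well above the family.

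**Figure D2:**
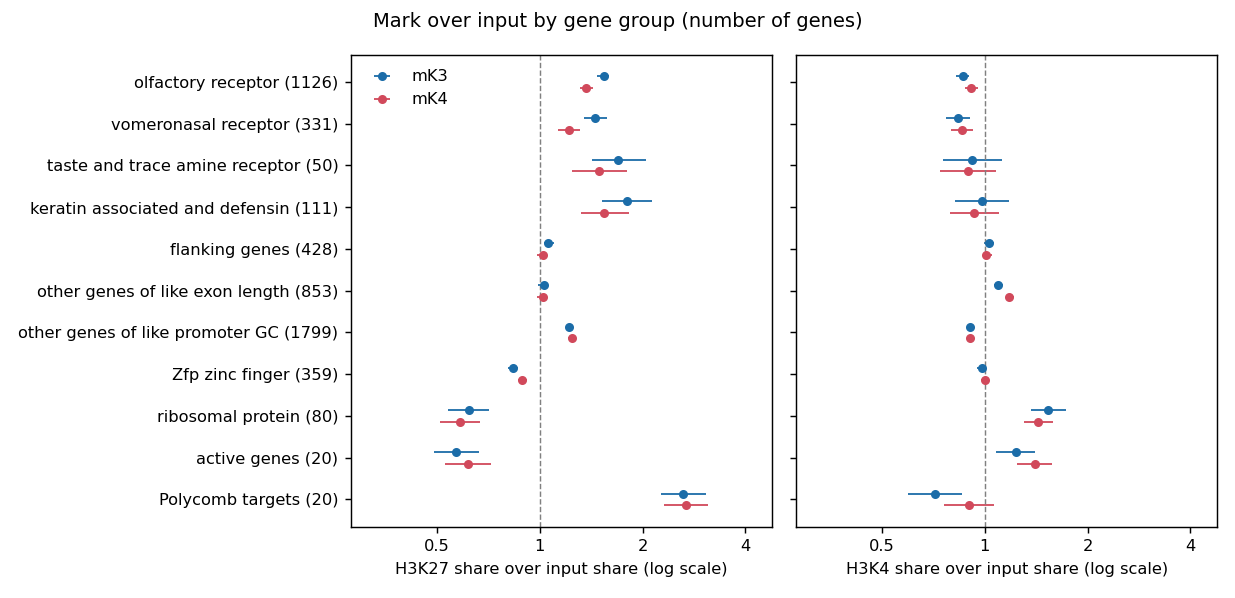
Share of ChIP reads over share of input reads (log scale) for H3K27 (left) and H3K4 (right) in mK3 and mK4, by gene group, with 95% counting intervals as bars. Olfactory receptor genes lie at 1.54 and 1.37 for H3K27, beside the other receptor families, above flanking genes (1.06 and 1.02) and below Polycomb targets (2.63 and 2.68).

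Single genes were called marked when their count, scaled to the mean library total of 513622 plus a pseudocount of 5, was at least 2-fold that of the same line's input. For H3K27, 180 of 1126 members (16%) were called in mK3, where 10.3% of all genes were called. In mK4, 114 members (10.1%) were called, against 9.06% of all genes, which is close to the background. For H3K4, 52 members (4.62%) were called in mK3 against 4.94% of all genes, and 36 (3.2%) in mK4 against 3.69%. The median log2 H3K27 ratio with pseudocount was 0.35 for members in mK3 and 0.21 in mK4, against 0.00 in both lines for all genes. The H3K4 median was 0.00 in both lines for members as for all genes. Low input counts went with the calls: 93.9% of the H3K27 calls in mK3 and 86.8% in mK4 had at most 2 input reads, against 59% and 52.5% of all members. The count and its relation to all genes depended on the pseudocount. With a pseudocount of 1, 449 members (39.9%) were called for H3K27 in mK3 against 18.1% of all genes, and with a pseudocount of 10, 40 (3.55%) against 5.47%, so the excess over all genes turned to a deficit. The calls are therefore no support for the pooled values. Only 23 members were called for H3K27 in both lines, 12.8% of the mK3 calls and 20.2% of the mK4 calls, while for other genes the shares were 29.1% and 32.1%. For H3K4, 2 members were called in both lines, 3.85% of the mK3 calls and 5.56% of the mK4 calls, against 17.1% and 22.7% for other genes.

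The spread among members was larger than counting error alone. Taking members with at least 5 ChIP and input reads together, and on a scale where 1 is counting error, the mean squared deviation of H3K27 over input between members was 1.70 in mK3 and 1.80 in mK4, and that of H3K4 was 1.78 and 1.60. Other genes of like exon length had 2.44 and 2.21 for H3K27 and 2.20 in both lines for H3K4. They also had more reads, with 5.14 input reads per exon kilobase in mK3 against 2.58 in members. The measure rises with reads per gene for the same variation, so these values do not show which set spread more.

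The family was divided into runs of consecutive members in the gene order of RefSeq assembly GRCm38.p6, with at most 5 other measured genes between neighbours. The deposited files give the chromosome of a gene but no coordinates in their own build, mm9, so positions are given by chromosome and end members. Of the 1126 members, 1120 could be placed, in 59 runs on 17 chromosomes, and 23 runs of at least 10 members held 990 of them. H3K27 over input was above 1 in 23 of these 23 runs in mK3 and in 22 in mK4, and the interval lay above 1 in 21 and 12 of them. It was above the value of the 10 nearest other genes on each side in 21 and 18 runs, with separate intervals in 11 and 7. For H3K4 no interval lay above 1 in either line, while 5 intervals in mK3 and 3 in mK4 lay below 1.

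The run on chromosome 11 from Olfr30 to Olfr311 (21 genes) had the highest H3K27 ratio of the 23 in both lines. It held 68 H3K4, 165 H3K27 and 32 input reads in mK3 and 90, 143 and 44 in mK4, which gave H3K27 ratios of 2.71 (1.85 to 4.09) and 2.61 (1.85 to 3.75). Its flanking genes were also above 1, at 1.57 and 1.41. The largest run, on chromosome 2 from Olfr987 to Olfr1274-ps (226 genes), was near the low end. It held 811 H3K4, 1276 H3K27 and 574 input reads in mK3 and 894, 811 and 630 in mK4, and its H3K27 ratio was 1.17 (1.06 to 1.29) in mK3 and 1.03 (0.931 to 1.15) in mK4. H3K4 in that run was 0.739 and 0.769, below the family as a whole. On chromosome 9 the run from Olfr160 to Olfr986 (99 genes) stood at 1.49 and 1.23, beside 1.48 and 1.45 in its flanking genes, so it was level with them in mK3 and below them in mK4. The lowest values were 1.11 in mK3, on chromosome 7 from Olfr310 to Olfr292 (15 genes), and 0.982 in mK4, on chromosome 4 from Olfr62 to Olfr1328 (13 genes). Across the 23 runs the H3K27 ratios of the lines went together (Pearson r 0.74, Spearman rho 0.62), and the H3K4 ratios did not (0.046 and 0.034). The H3K27 ratio and the median promoter GC of a run had Pearson r 0.51 and Spearman rho 0.59 in mK3, but 0.27 and 0.26 in mK4. All these coefficients are descriptions over runs from 1 set of libraries.

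**Figure D3:**
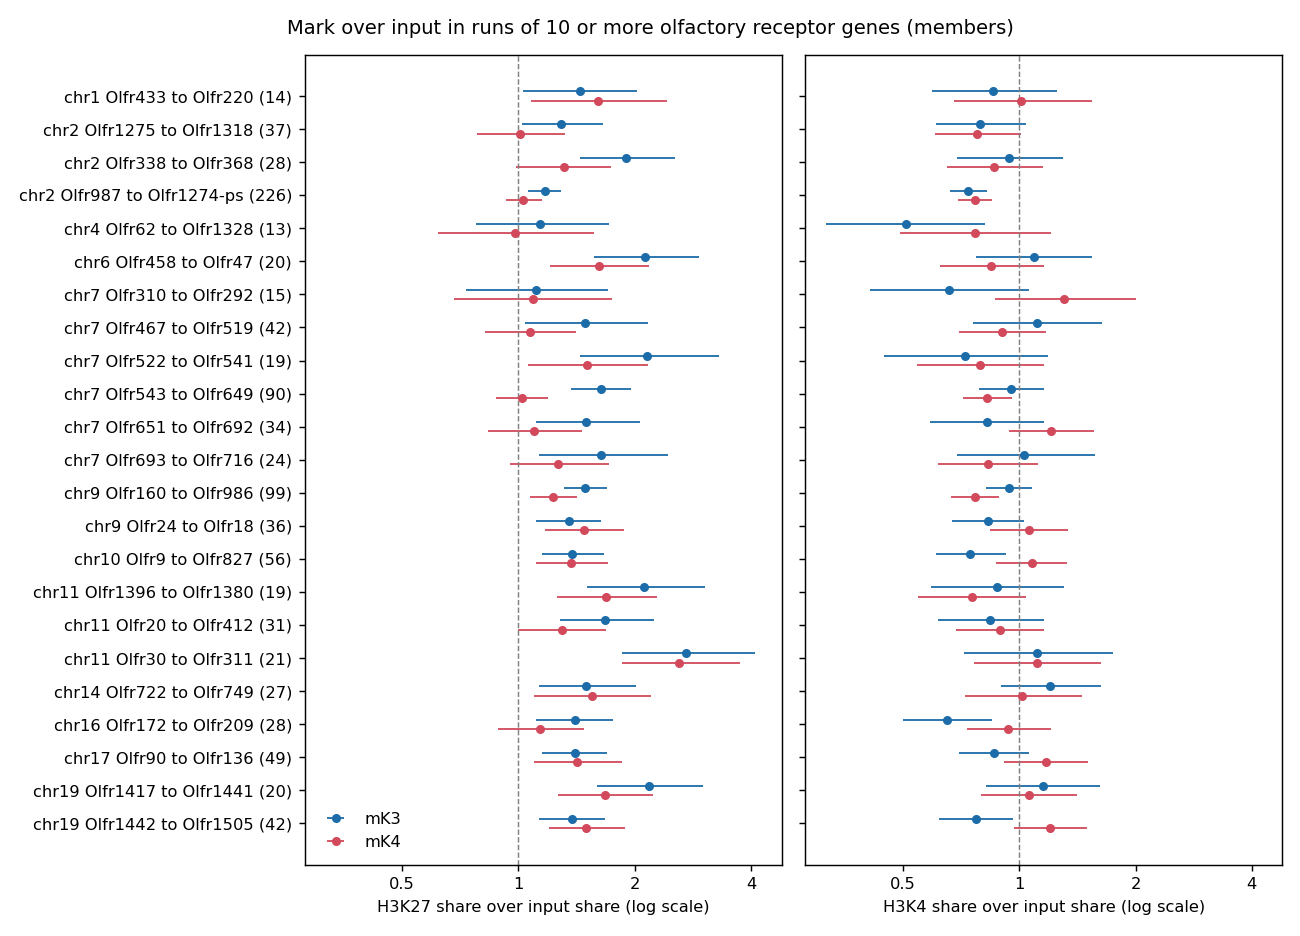
Share of H3K27 (left) and H3K4 (right) reads over the input share of the same line (log scale) for the 23 runs of at least 10 olfactory receptor genes, named by chromosome and end members with the number of genes in brackets. Bars are 95% counting intervals. H3K27 lies between 1.11 and 2.71 in mK3 and between 0.982 and 2.61 in mK4, while H3K4 lies on both sides of 1.

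Pooled by run size, H3K27 over input was lower in the classes of longer runs. The 12 single genes had 2.16 (1.54 to 3.11) in mK3 and 2.24 (1.60 to 3.19) in mK4, and the 118 genes in runs of 2 to 9 had 2.01 (1.79 to 2.26) and 2.17 (1.92 to 2.45). Runs of 10 to 29 members had 1.74 and 1.48, runs of 30 to 99 had 1.45 and 1.23, and the run of over 100 had 1.17 and 1.03. The last class is a single run, and among the 23 long runs alone the relation of size to H3K27 over input was weak (Pearson r -0.31 in mK3 and -0.37 in mK4 on log scales, Spearman rho -0.27 and -0.38, as descriptions). The H3K27 read density fell alongside, from 14.9 reads per exon kilobase in single genes to 5.72 in the largest run in mK3 and from 11.5 to 3.64 in mK4. Promoter GC content moved with run size, with medians of 42.7%, 42.3%, 37.7%, 34.7% and 32%. Within windows of 35 to 45% GC, 54 genes of runs under 10 had 1.75 (1.47 to 2.10) and 1.87 (1.56 to 2.24), and 332 genes of longer runs had 1.59 (1.47 to 1.72) and 1.33 (1.23 to 1.44). In that class the intervals were apart in mK4 and overlapped in mK3. In windows of up to 35% GC, 15 genes of runs under 10 had 2.07 (1.46 to 3.0) and 2.26 (1.51 to 3.48), and 457 genes of longer runs had 1.33 (1.24 to 1.43) and 1.21 (1.13 to 1.31). These classes of size and GC were chosen after the data were seen.

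**Figure D4:**
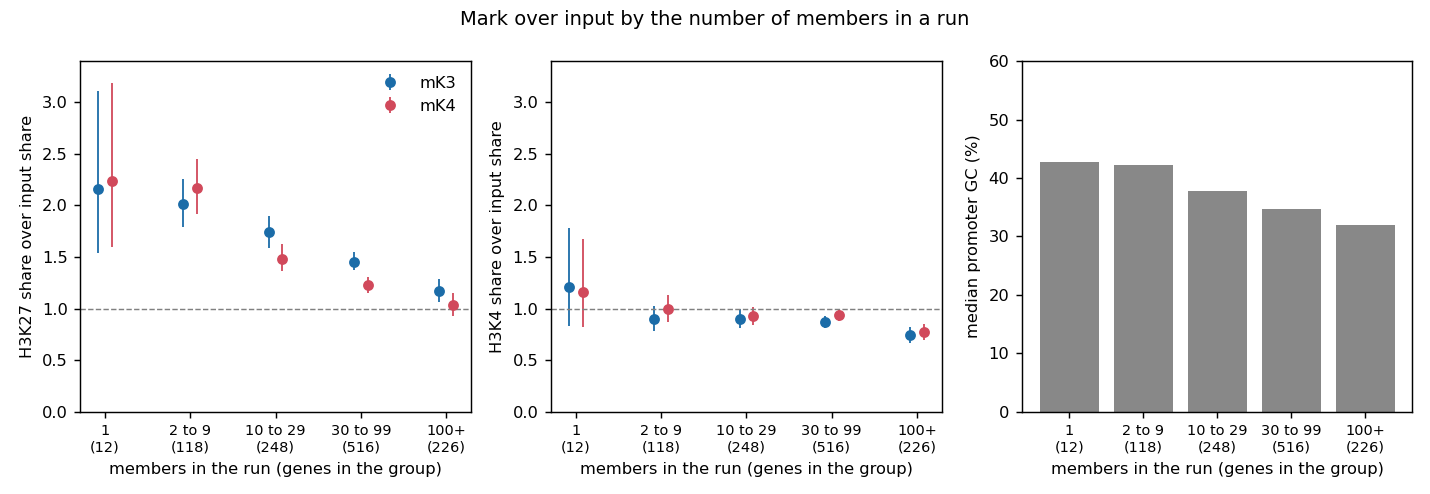
H3K27 over input (left), H3K4 over input (middle) and median promoter GC (right, %) of olfactory receptor genes grouped by the number of members in their run, with 95% counting intervals in the first 2 panels. H3K27 goes from 2.16 and 2.24 in single genes to 1.17 and 1.03 in the run of over 100 genes, and median GC goes from 42.7% to 32%.

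Seen by promoter composition, the members differed most from other genes where GC was high. In windows above 50% GC, the H3K27 ratio was 2.18 in mK3 and 1.72 (1.38 to 2.14) in mK4 over 22 members, against 0.944 and 0.945 over 11757 other genes. Between 45 and 50% GC it was 1.89 and 1.85 over 57 members, against 1.11 and 1.16. Between 35 and 45% GC it was 1.61 (1.5 to 1.74) and 1.41 (1.31 to 1.51) over 386 members. The 1792 other genes of that class had 1.21 (1.19 to 1.23) and 1.24 (1.22 to 1.26), so the intervals were apart in both lines. These classes match GC but not CpG. Above 50% GC the median ratio of observed to expected CpG was 0.144 in members and 0.741 in other genes. Between 45 and 50% GC it was 0.129 and 0.271, and between 35 and 45% GC it was 0.0974 and 0.203. At up to 35% GC it was 0.118 in both. At up to 35% GC, which took in 472 members, the values were 1.36 (1.27 to 1.45) and 1.24 (1.15 to 1.33), against 1.46 (1.37 to 1.56) and 1.25 (1.18 to 1.33) over 224 other genes. Without the other receptor, keratin associated and defensin genes these other genes had 1.43 and 1.33 (119 genes). In this AT-rich class the intervals of members and other genes overlapped in both lines.

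Several of the short runs stood high in both lines. The run on chromosome 14 from Olfr1513 to Olfr49 (8 genes), which lies next to the H enhancer, had H3K27 ratios of 2.55 (1.69 to 3.98) in mK3 and 2.45 (1.48 to 4.22) in mK4 and H3K4 ratios of 1.21 in both. Its 3 best known genes, Olfr1507, Olfr1508 and Olfr1509, are the ones whose expression depends on the H element in the nose. Olfr1507 had 10 H3K4, 29 H3K27 and 1 input reads in mK3 and 11, 9 and 3 in mK4. Its H3K27 ratio was 15.2 (2.52 to 622) in mK3 and 2.41 (0.602 to 13.8) in mK4, so it rests on an input of 1 and 3 reads. Olfr1508 had 10, 29 and 7 reads in mK3 and 13, 13 and 8 in mK4. Olfr1509 had 10, 18 and 6 reads in mK3 and 5, 12 and 1 in mK4. Over input, H3K27 of Olfr1507 and Olfr1508 in mK4 was 2.41 and 1.31, beside 1.99 and 0.880 for H3K4, with intervals that overlap.

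On chromosome 15 the run from Olfr288 to Olfr279 (9 genes) had 2.06 (1.5 to 2.87) and 2.03 (1.44 to 2.92), at a median promoter GC of 49.3%. Its members Olfr282, Olfr284 and Olfr285 were called for H3K27 in both lines. Olfr285 had 18 H3K4, 38 H3K27 and 5 input reads in mK3 and 9, 17 and 1 in mK4, the same as Olfr257. On chromosome 1 the run from Olfr1416 to Olfr12 (8 genes) had 2.68 (1.65 to 4.57) and 3.42 (2.08 to 5.87), against 0.848 and 0.824 in its flanking genes. In mK3 its members had between 4 and 17 H3K27 reads and at most 5 input reads. The run on chromosome 4 from Olfr70 to Olfr155 (7 genes) had 2.51 (1.66 to 3.92) and 3.01 (1.95 to 4.78). Not every short run was high: on chromosome 1 the 6 genes from Olfr16 to Olfr418-ps1 had 1.29 (0.772 to 2.22) and 0.612 (0.299 to 1.23). These short runs were picked out after their values were seen.

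Among members with at least 20 reads in all, the highest H3K27 sums over both lines belonged to Olfr214, Olfr257, Olfr285, Olfr429 and Olfr686. Olfr686, a class I receptor on chromosome 7, had 1 H3K4, 16 H3K27 and 0 input reads in mK3 and 6, 7 and 0 in mK4. Against a floor of 3 input reads per library its H3K27 share was at least 2.80-fold higher in mK3 and at least 1.87-fold higher in mK4. Olfr429, on chromosome 1, had 6, 12 and 0 reads in mK3 and 6, 10 and 0 in mK4. With the same floor this is 2.10-fold and 2.68-fold, and its intervals began at 1.46 and 1.8. Olfr214, on chromosome 6, had 11, 19 and 0 reads in mK3 and 8, 16 and 3 in mK4. All of these members had few input reads, which is what the ranking favours. At the other end, Olfr123 on chromosome 17 was among the 5 lowest for each mark, with 4, 7 and 12 reads in mK3 and 2, 1 and 6 in mK4. Olfr1211, of the chromosome 2 run, had 4, 4 and 9 reads in mK3 and 8, 0 and 5 in mK4. For H3K4, the highest sums were those of Olfr1094, Olfr1437, Olfr1499, Olfr827 and Olfr963. Olfr1437 and Olfr1499, both on chromosome 19, were the 2 members called for H3K4 in both lines. Olfr1437 had 6, 9 and 0 reads in mK3 and 13, 5 and 1 in mK4. Olfr1499 had 10, 5 and 1 reads in mK3 and 7, 3 and 0 in mK4.

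The members described in kidney had from 15 to 120 reads over the 6 libraries, and 1 of the 6 was called. Olfr78, a class I receptor known from renal blood vessels with an exon length of 3500 bp, had 26 H3K4, 34 H3K27 and 10 input reads in mK3 and 17, 20 and 13 in mK4. Its H3K27 ratio was 1.79 (0.862 to 4.05) and 1.24 (0.585 to 2.70), and its H3K4 ratio was 1.36 (0.635 to 3.16) and 0.708 (0.324 to 1.59), so no value was apart from 1. Olfr90 had 10, 8 and 1 reads in mK3 and 10, 9 and 1 in mK4, with H3K4 called in mK3 and H3K27 in mK4 on an input of 1 read. Olfr56 had 10, 21 and 6 reads in mK3 and 12, 22 and 7 in mK4, with H3K27 ratios of 1.84 (0.717 to 5.57) and 2.53 (1.04 to 7.0). Olfr1392 had 4, 9 and 1 reads in mK3 and 6, 6 and 6 in mK4. Olfr1373 had 2, 4 and 0 reads and 2, 5 and 2 reads, and Olfr1393 had 1, 4 and 4 reads and 3, 3 and 1 reads. Of other much studied members, Olfr16, which is also expressed in testis, had 13, 12 and 5 reads in mK3 and 4, 3 and 4 in mK4. Olfr160 had 4, 11 and 1 reads in mK3 and 3, 5 and 1 in mK4, and was called for H3K27 in mK3.

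Between the lines, H3K27 on the family was lower in mK4 than in mK3. The members' share of reads in mK4 over that in mK3 was 0.801 for H3K27, 0.951 for H3K4 and 0.896 (0.852 to 0.942) for input. With each line's own input as base, H3K27 in mK4 was 0.894 (0.842 to 0.949) of that in mK3, and H3K4 was 1.06 (0.996 to 1.13) of it. Set against other genes in the same promoter GC classes, the H3K27 value was 0.979. On the base of input, vomeronasal receptor genes were at 0.839 (0.755 to 0.932) for H3K27 in mK4 over mK3. Other genes with promoters of up to 35% GC were at 0.854 (0.784 to 0.931), so a drop was also seen outside the family. The 1799 other genes of like promoter GC were at 1.01 (0.983 to 1.03). By gene, the fold between lines was taken between scaled ChIP counts with the pseudocount of 5, without division by input. Input shares of members in mK4 over mK3 differed by chromosome, for example 0.671 on 14, 0.567 on 17 and 1.42 on 7. A call over input in 1 line or more was also required, and mK3 had more H3K27 calls than mK4 (180 against 114). By this rule 25 members (2.22%) were at least 2-fold lower for H3K27 in mK4, where 0.934% of all genes were. Another 6 (0.533%) were at least 2-fold higher, where 0.889% of all genes were. For H3K4, 8 members (0.71%) were lower in mK4 against 0.392% of all genes, and 5 (0.444%) were higher against 0.424%. An example of the 25 is Olfr961 on chromosome 9, with 3 H3K4, 18 H3K27 and 1 input reads in mK3 and 1, 2 and 4 in mK4. Another is Olfr732 on chromosome 14, with 6, 18 and 2 reads in mK3 and 7, 0 and 2 in mK4. Against the trend, Olfr1402 on chromosome 3, which forms a run of 1 gene, had 1, 10 and 2 reads in mK3 and 25, 28 and 6 in mK4. Input shares on that chromosome also differed between the lines, at 1.84 over its other genes and 2.96 over the 20 genes that flank Olfr1402. The 3 genes were chosen after their values were seen.

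With input as the base, the drop of H3K27 in mK4 was larger on chromosome 7 than elsewhere. The 236 members of chromosome 7 went from 1.59 (1.42 to 1.79) in mK3 to 1.14 (1.03 to 1.26) in mK4, a ratio of 0.717 (0.616 to 0.834), and the 890 other members from 1.53 (1.46 to 1.60) to 1.43 (1.37 to 1.5), a ratio of 0.938 (0.879 to 1.0). These 2 intervals are apart. The input share of chromosome 7 members was 1.42-fold higher in mK4 than in mK3, and that of the other genes of chromosome 7 was 1.55-fold higher. The H3K27 share of chromosome 7 members was nearly level, at 1.02, while that of members elsewhere was 0.766. On chromosome 7 the lower ratio thus came with a higher input share and a level H3K27 share. The H3K4 share of the same members was 1.43-fold higher in mK4, close to their input. The H3K27 share of the other genes of chromosome 7 was 1.46-fold higher. Whether copy number of the chromosome plays a part was not tested. Other genes of chromosome 7 kept their H3K27 ratio more closely, at 1.09 in mK3 and 1.03 in mK4. Class I receptors, of which 122 of 124 lie on that chromosome, went from 1.57 to 1.04, a ratio of 0.663 (0.544 to 0.808). Class II receptors of chromosome 7 went from 1.61 to 1.29, a ratio of 0.803 (0.635 to 1.01), which overlaps with that of class I. The split by chromosome was chosen after the data were seen.

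By run, the H3K27 interval between the lines was below 1 in 2 of the 23 long runs and above 1 in 0. The class I region from Olfr543 to Olfr649 (90 genes) on chromosome 7 had 303 H3K4, 518 H3K27 and 166 input reads in mK3 and 464, 387 and 304 in mK4. Its ratio went from 1.64 (1.37 to 1.96) to 1.02 (0.878 to 1.19), which is 0.624 (0.496 to 0.786) of mK3. The chromosome 9 run from Olfr160 to Olfr986 was the other, at 0.826 (0.684 to 0.998). For H3K4 the interval was above 1 in 4 runs and below 1 in 1. The input share of a run in mK4 ranged from 0.518 to 1.88 of that in mK3. It was above 1 beyond its interval in 3 runs, all on chromosome 7, and below in 8. The H3K27 and input ratios between the lines moved together over the 23 runs (Pearson r 0.90, Spearman rho 0.86), and so did those of H3K4 and input (0.67 and 0.67), as descriptions over runs of the same libraries.

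**Figure D5:**
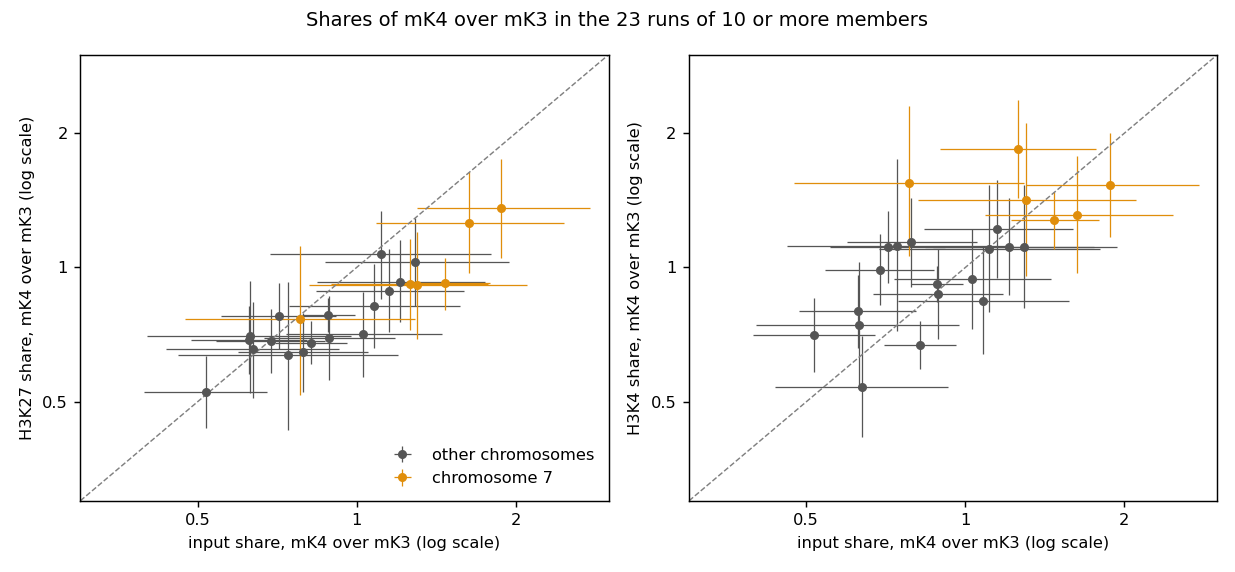
Share of reads in mK4 over that in mK3 (log scales) for the 23 runs of at least 10 olfactory receptor genes, with input on the horizontal axis and H3K27 (left) or H3K4 (right) on the vertical axis. Bars are 95% counting intervals, the dashed line marks equal ratios, and chromosome 7 runs are in orange. Input ranges from 0.518 to 1.88, and 18 of the 23 runs lie below the line for H3K27.

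Genes that act with the receptors had a pooled H3K27 signal near that of input. Of 30 genes of receptor choice and olfactory signalling, 2 were called for H3K27 in mK3 (6.67%, against 10.3% of all genes) and 5 in mK4 (16.7%, against 9.06%). For H3K4, 2 were called in each line (6.67%), where the background was 4.94% for mK3 and 3.69% for mK4. Each count is of 5 genes or fewer. The pooled H3K27 ratio of the 30 was 1.07 (0.969 to 1.19) in mK3 and 1.0 (0.904 to 1.12) in mK4. Cngb1, a subunit of the olfactory ion channel, was called for H3K27 in both lines, with 22 H3K4, 63 H3K27 and 15 input reads in mK3 and 27, 63 and 22 in mK4. Rtp2, which carries receptors to the cell surface, was called in mK3 with 17, 50 and 10 reads. Ebf2, Ebf4, Gng13 and Reep1 were the others called in mK4. Emx2, a transcription factor of both the olfactory epithelium and the embryonic kidney, was called for H3K4 in both lines, with 89, 20 and 18 reads in mK3 and 112, 17 and 24 in mK4. Lhx2, a factor required for receptor choice, was called for H3K4 in mK4 only, with 49 H3K4 reads and 6 input reads there.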

How the data were processed

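The authors deposited 1 table per library with whole-read counts per gene over exons, an exon length in bp and an RPKM value, per the file headers. The deposited RPKM was only recomputed from the counts as a check. The build is mm9 per the submitters' processing notes. For the aligner, read length and duplicate removal nothing is stated in the sources used here. Counts were used as deposited, with 1 row kept per symbol (the highest mean over ChIP libraries), and shares were taken of all counted reads, 311409 to 714011 per library. A share ratio has an exact Clopper-Pearson 95% interval, and a ratio between lines a Wald interval on the log scale. These cover counting error only. No test was made, since each group has 1 library. Gene order, names and classes came from RefSeq GRCm38.p6, 1101 members by symbol and 19 by synonym. Class I or II was read from synonyms. Named genes were 16 members fixed by name and, per mark, the 5 highest and 5 lowest by the sum over both lines among members with at least 20 reads, plus the 3 with the most input reads. The members and lists were chosen with earlier results of these data known. The calculation was tested on simulated counts with counting error only, which does not cover the wider spread seen among members. Python 3.11.15, pandas 2.3.3, scipy 1.17.1, matplotlib 3.10.9 and, for TMM factors, edgeR 4.0.16 in R 4.3.3 were used. Alternatives covered scaling, pseudocount, fold, read minimum, chromosomes, duplicate rows, backgrounds and the run rule.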

Additional observations from a re-analysis of the deposited data

How the results depend on the processing

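Of 78 alternative values for 13 results, 52 stayed close to the reported value, 25 moved and 1 changed direction. Against other genes in the same promoter GC classes, an alternative chosen after seeing the data, H3K4 in mK4 went from 0.912 to 1.04. H3K4 in mK3 then stood at 0.938, H3K27 at 1.16 in mK3 and 1.14 in mK4, and H3K27 in mK4 against mK3 at 0.979. Size factors of the DESeq2 type moved all genes up over input by 0.12 (H3K4, both lines), 0.33 (H3K27, mK3) and 0.29 (H3K27, mK4) on the log2 scale, and gave 0.933 and 0.989 for H3K4 in mK3 and mK4, 1.94 and 1.68 for H3K27, and 0.982 for the input share. This shift is the same for every gene. With TMM factors H3K27 was 1.58 and 1.43. The calls per gene stayed within 1.5 times under size factors and a minimum of 20 reads, and moved under the other settings. In the order H3K4 mK3, H3K4 mK4, H3K27 mK3 and H3K27 mK4, a pseudocount of 1 gave 245, 217, 449 and 390 members, a pseudocount of 10 gave 7, 0, 40 and 27, a fold of 3 gave 7, 0, 26 and 14, and exon length in place of input gave 0, 0, 5 and 4. For H3K27, the share of members called was below that of all genes with a pseudocount of 10 (3.55% against 5.47% in mK3, 2.4% against 4.9% in mK4), with exon length (0.444% against 2.47%, 0.355% against 3.64%), and in mK4 with a fold of 3 (1.24% against 1.66%) and with size factors (12.7% against 14.3%). Few reads per gene limit all values for single members. No paired analysis was possible because each group has 1 library.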
